A study of Homo sapiens with 12 samples.

Results

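The immediate-early FOS, JUN and EGR genes were followed as 10 transcripts: FOS, FOSB, JUN, JUNB, JUND, EGR1, EGR2, EGR3, IER2 and ATF3. They were chosen by symbol, as the rows of the deposited table of raw read counts whose Ensembl gene carries one of these names, and each symbol matched 1 of the 58051 genes in the table. Of these 10, 9 had enough counts to be tested, and EGR2 did not.

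Counts came from polyadenylated RNA of MV4-11, an established human line of acute myeloid leukaemia whose known drivers are a KMT2A fusion and mutated FLT3 with an internal tandem duplication. All cells had grown in RPMI with serum and were treated for 6 h. The 3 compound groups received 200 nM BSJ-03-123, 200 nM YKL-06-102 or 200 nM palbociclib, and the comparison group received the vehicle, 0.1% DMSO. There were 3 libraries in each group. Palbociclib blocks the catalytic activity of CDK4 and CDK6, and the submitters call BSJ-03-123 and YKL-06-102 phthalimide conjugates specific for CDK6, in a study of selective CDK6 degradation. The labels give no structural difference between the conjugates, and a single line at a single dose and time limits what the groups can stand for.

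Immediate-early genes are transcribed soon after a growth factor, cytokine or stress signal without prior protein synthesis, mainly through ERK and other kinases acting on serum response factor and its partners, and most of their transcripts decay quickly. FOS and JUN proteins pair as the AP-1 transcription factor, while EGR proteins are zinc finger factors that bind GC-rich sites and are held in check by the NAB corepressors. In the myeloid lineage EGR1 is known for favouring monocytic differentiation. CDK6 has been described as a transcriptional cofactor besides its kinase role, and EGR1 is among its described targets, in mouse haematopoietic stem cells as a gene that Cdk6 represses.

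The promoters of 2 members are printed because they hold motifs through which immediate-early genes are classically switched on, and because EGR1 rose and JUND was the most abundant member. Each is the stretch of 250 bases before the RefSeq start site in GRCh38.p14, 5′ to 3′ on the gene's strand. EGR1 is at chr5:138465229-138465478 on the plus strand, with 2 CArG boxes, the core of a serum response element, in capitals. JUND is at chr19:18281623-18281872 on the minus strand, with a cyclic AMP response element, TGACGTCA, in capitals.
EGR1: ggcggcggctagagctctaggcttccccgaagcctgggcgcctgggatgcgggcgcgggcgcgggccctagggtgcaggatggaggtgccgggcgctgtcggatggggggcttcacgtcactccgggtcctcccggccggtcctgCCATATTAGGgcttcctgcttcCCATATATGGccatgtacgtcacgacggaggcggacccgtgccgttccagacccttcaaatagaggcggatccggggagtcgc
JUND: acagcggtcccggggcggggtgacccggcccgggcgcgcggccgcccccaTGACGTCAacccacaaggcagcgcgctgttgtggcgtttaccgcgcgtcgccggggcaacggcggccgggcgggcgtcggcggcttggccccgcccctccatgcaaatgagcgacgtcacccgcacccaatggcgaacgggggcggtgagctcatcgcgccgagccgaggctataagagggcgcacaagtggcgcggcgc

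Both strands of the RefSeq windows, from 250 bases before to 50 bases after a start site, were searched for 4 motifs, and 9 members had at least 1 of 12 windows. No window of EGR3 was used here. CArG boxes were found in EGR1, beginning 105 and 83 bases before the start site, and in 1 window of EGR2, against 1.29% of all 35116 windows. The element TGACGTCA was found in JUND, beginning 200 bases before its start site, against 1.85% of all windows. The EGR site GCGNGGGCG was found in EGR1, beginning 198 bases before the start site, and in 1 window of EGR2, against 9.43% of all windows. The AP-1 site TGANTCA was found in no member window, against 7.71% of all windows. None of the motifs overlapped another in these windows, and a match describes letters and not binding. A lack of a match holds only for these exact letters within these windows, and sites further away or with other letters were not searched.

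Library totals ranged from 18764307 to 25539858 counts, and 14214 genes passed the filter on low counts and were tested. DMSO replicate 2 stood apart: set against DMSO replicates 1 and 3, its counts gave a chi-square per degree of freedom of 5.87 and 8.91, while every other pair of replicates gave between 1.72 and 2.94. Whether replicates were separate cultures is not given, and the p-values therefore reflect only how far these libraries spread, a spread that may be technical. Of the markers for myeloid leukaemia cells, 9 of 9 were above 1 CPM (the count relative to library size, scaled by the TMM method), with summed levels of 1969 to 1994 CPM with BSJ-03-123, 2253 to 2293 CPM with YKL-06-102, 1992 to 2052 CPM with palbociclib and 1831 to 1875 CPM with DMSO. Of the other lineages' markers, 5 of 5 lymphoid and 5 of 6 stromal and epithelial markers were under 1 CPM, the sixth being PECAM1, and the erythroid markers HBB and ALAS2 were at 0. CDK6 RNA, which does not report on degradation of its protein, averaged 510 ± 13.3 CPM with BSJ-03-123, 499 ± 12.2 CPM with YKL-06-102, 491 ± 10.8 CPM with palbociclib and 446 ± 22.8 CPM with DMSO (SD, n = 3 each).

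Against DMSO, the clearest change among these genes was a rise of EGR1. EGR1 passed the test with YKL-06-102, at 42.7% above DMSO, and with palbociclib, at 31.3% above DMSO. EGR3, a second EGR factor, also rose with palbociclib. JUND fell slightly with YKL-06-102 and with palbociclib, and JUN fell with YKL-06-102. FOS, FOSB, JUNB, IER2 and ATF3 passed the test with none of the compounds, and no member passed it with BSJ-03-123.

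The share of members called was not above that of genes at large. Calls rest on edgeR's quasi-likelihood test with Benjamini-Hochberg adjustment over all 14214 genes, at an adjusted p under 0.05. With BSJ-03-123, 0 of 9 tested members were called, against 28.1% of all tested genes (12.4% higher and 15.7% lower). With YKL-06-102, 3 of 9 were called (1 higher and 2 lower), against 36.9% of all tested genes (15.6% higher and 21.3% lower). With palbociclib, 3 of 9 were called (2 higher and 1 lower), against 33.3% of all tested genes (15.6% higher and 17.6% lower). An unadjusted p under 0.05 was reached by 1 of 9 members with BSJ-03-123 (37.7% of all tested genes), by 3 of 9 with YKL-06-102 (44.4%) and by 5 of 9 with palbociclib (41.4%). The median absolute log2 fold change of the members was 0.13 for BSJ-03-123, 0.13 for YKL-06-102 and 0.17 for palbociclib, where that of all tested genes was 0.13, 0.15 and 0.14. The 3 comparisons share the same DMSO libraries, so they are not independent of each other. In bulk RNA, a change in the share of cells in some state and a change in RNA per cell cannot be told apart.

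**Figure D1:**
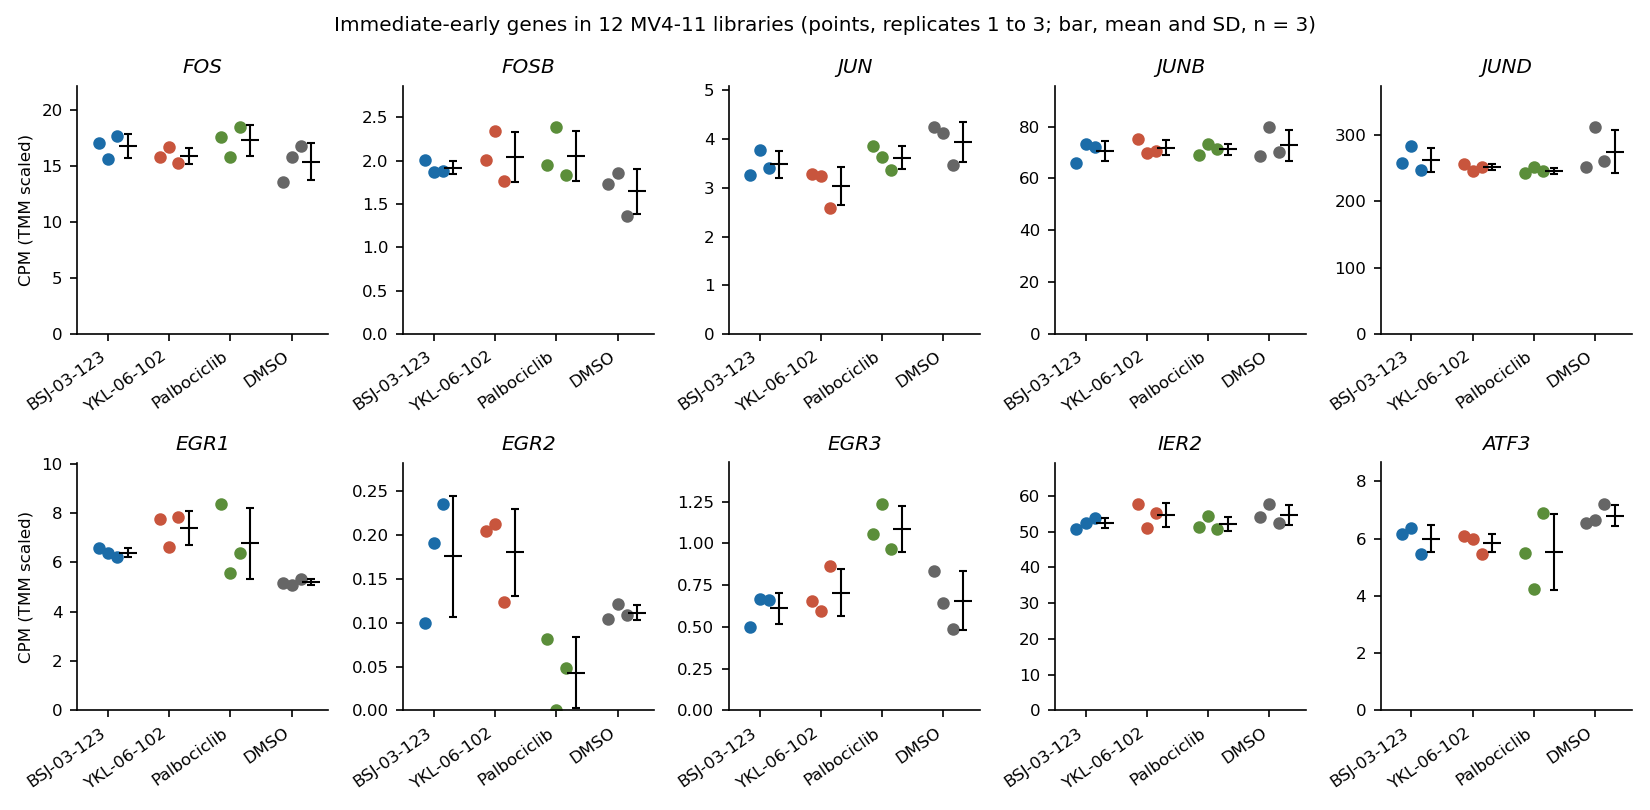
Level of each member in every library, in TMM-scaled CPM from 0 on a linear axis with its own scale per gene; points are replicates 1 to 3 of each group and the bar beside them is the mean with SD (n = 3). EGR1 lies above its 3 DMSO libraries in all 9 treated libraries, EGR3 lies above DMSO in the 3 palbociclib libraries, and DMSO replicate 2 is the highest library for JUND and JUNB.

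EGR1 spans chr5:138465490-138469315 on the plus strand in GENCODE 29 (GRCh38) and had 1717 counts over the 12 libraries. It stood at 6.57, 6.36 and 6.23 CPM in the BSJ-03-123 libraries, 7.74, 6.61 and 7.83 CPM in the YKL-06-102 libraries and 8.37, 5.57 and 6.36 CPM in the palbociclib libraries, against 5.18, 5.08 and 5.32 CPM in the DMSO libraries. All 9 treated libraries lay above all 3 DMSO libraries, and palbociclib replicate 1 was the highest of all. With YKL-06-102 the log2 fold change was 0.51 ± 0.124 (SE; 95% interval 0.26 to 0.77; adjusted p = 0.00135). It stayed past the threshold in 19 of 19 alternative settings, from 0.49 to 0.60. With palbociclib it was 0.39 ± 0.126 (adjusted p = 0.0164), and 18 of 19 settings kept the call. The exception was the fit without palbociclib replicate 1, where the change was 0.20 (adjusted p = 0.263). With BSJ-03-123 it was 0.30 ± 0.130 (95% interval 0.03 to 0.57), which did not pass in edgeR's test (adjusted p = 0.0863), although the groups did not overlap. It passed in 2 of 19 settings, with scaling by library totals (0.34, adjusted p = 0.0444) and without palbociclib replicate 1 (0.30, adjusted p = 0.0471).

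EGR3 was expressed at a low level, with 204 counts over the 12 libraries. Its counts were 10, 14 and 14 in BSJ-03-123 libraries, 16, 14 and 21 in YKL-06-102 libraries and 26, 28 and 20 in palbociclib libraries, against 16, 16 and 9 with DMSO. Per library it stood at 0.502, 0.670 and 0.660 CPM for BSJ-03-123, 0.655, 0.597 and 0.865 CPM for YKL-06-102 and 1.06, 1.24 and 0.964 CPM for palbociclib, against 0.838, 0.646 and 0.488 CPM for DMSO. The 3 palbociclib libraries lay above every other library in the series, and the other 3 groups overlapped. The rise with palbociclib was 0.72 ± 0.276 on the log2 scale (95% interval 0.15 to 1.29; adjusted p = 0.0402). It held in 11 of the 17 settings that gave an adjusted p, and it was lost without palbociclib replicate 1 (adjusted p = 0.0788), without palbociclib replicate 2 (0.148), without DMSO replicate 2 (0.105) and without DMSO replicate 3 (0.158). With all libraries of the groups kept, it was lost with no filter (adjusted p = 0.0661) and in the fit of only the 2 groups (0.0545). Neither the BSJ-03-123 change of -0.10 ± 0.316 nor the YKL-06-102 change of 0.10 ± 0.296 passed the test. EGR3 shares 164 exon bases with AC055854.1 on the other strand, which had 1 count, and the strand setting of the counting is not given.

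EGR2, a zinc finger factor of the same family, was close to the detection limit, with 34 counts over the 12 libraries. The BSJ-03-123 libraries held 2, 4 and 5 counts, the YKL-06-102 libraries 5, 5 and 3, the palbociclib libraries 2, 0 and 1 and the DMSO libraries 2, 3 and 2. It was not tested, no fold change is given, and a count of 0 allows up to 3 counts in that library.

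**Figure D2:**
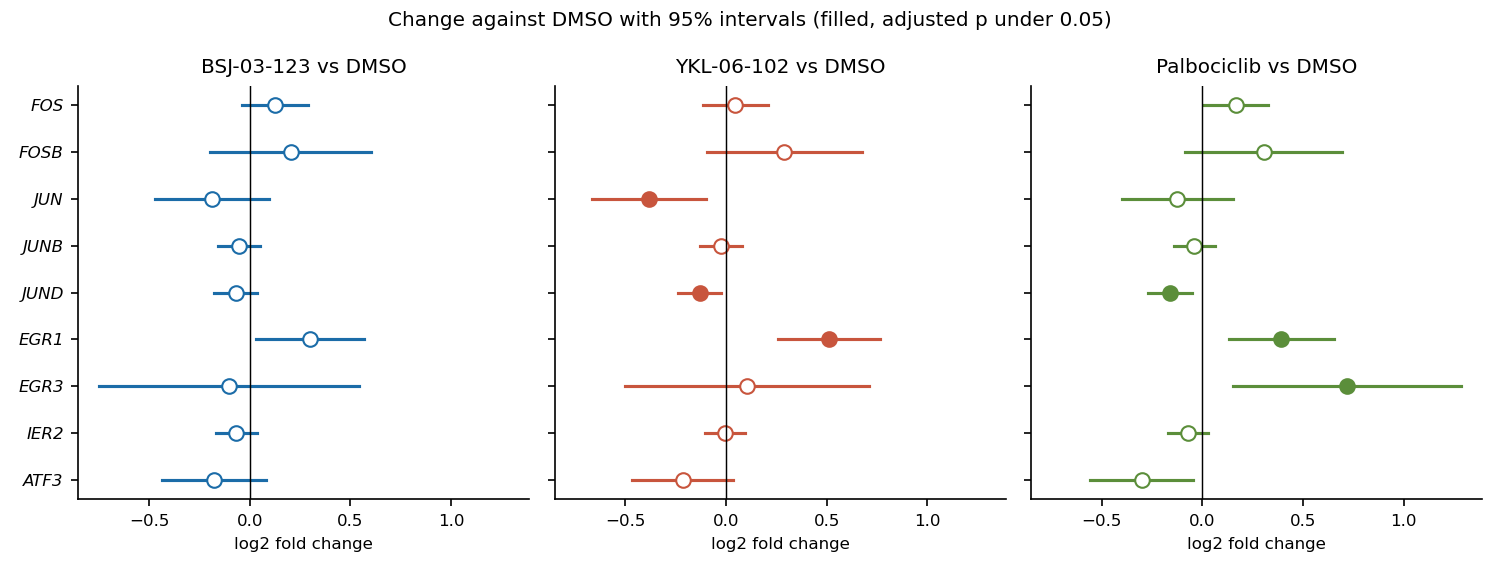
Log2 fold change against DMSO of the 9 tested members, with 95% intervals as lines, 1 panel per compound; filled points passed the test (adjusted p under 0.05). EGR1 lies to the right of 0 in all 3 panels and is filled with YKL-06-102 and palbociclib, EGR3 is far right with palbociclib only, with a wide interval, and JUNB and IER2 lie close to 0 with narrow intervals.

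Among the Jun proteins, JUN is the founding AP-1 subunit and spans chr1:58780788-58784327 on the minus strand. JUN stood at 3.26, 3.78 and 3.40 CPM with BSJ-03-123, 3.28, 3.24 and 2.59 CPM with YKL-06-102 and 3.86, 3.62 and 3.37 CPM with palbociclib, against 4.24, 4.12 and 3.47 CPM with DMSO. The 3 YKL-06-102 libraries lay below all DMSO libraries, and the other compounds overlapped with DMSO. JUN had a log2 fold change of -0.38 ± 0.138 with YKL-06-102 (adjusted p = 0.0289), a change of -23.3%. That call held in 13 of 19 settings and was lost without YKL-06-102 replicate 3 (adjusted p = 0.186), without DMSO replicate 1 (0.102) and without DMSO replicate 2 (0.111). The method mattered too: the call was lost with DESeq2 (adjusted p = 0.110), with no filter (0.0752) and in the fit of only the 2 groups (0.0635). The changes of -0.19 ± 0.138 with BSJ-03-123 and -0.13 ± 0.134 with palbociclib did not pass the test.

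JUND, an AP-1 subunit that many cells express without stimulation, spans chr19:18279760-18281622 on the minus strand. JUND stood at 257, 283 and 246 CPM with BSJ-03-123, 256, 246 and 251 CPM with YKL-06-102 and 242, 251 and 245 CPM with palbociclib, against 251, 311 and 261 CPM with DMSO. DMSO replicate 2 was the highest of the 12 libraries, and only the palbociclib libraries lay wholly below DMSO. JUND fell by 0.13 on the log2 scale with YKL-06-102 (SE 0.052; adjusted p = 0.0493) and by 0.16 with palbociclib (SE 0.052; adjusted p = 0.0179). Without DMSO replicate 2 neither change passed: it was -0.0082 with YKL-06-102 (adjusted p = 0.890) and -0.061 with palbociclib (adjusted p = 0.229). Over all settings the call held in 6 of 19 with YKL-06-102 and in 14 of 19 with palbociclib. Both calls were also lost with library totals (adjusted p = 0.153 and 0.0794) and with DESeq2 (0.309 and 0.133). The palbociclib call was lost without palbociclib replicate 1 (adjusted p = 0.0706) or 3 (0.0506) as well. With BSJ-03-123 JUND changed by -0.07 ± 0.053, which did not pass, and turned to 0.030 without DMSO replicate 2.

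JUNB, an AP-1 subunit that can counter JUN, stood between 66.0 and 73.1 CPM with BSJ-03-123, 69.8 and 75.1 CPM with YKL-06-102 and 68.9 and 73.4 CPM with palbociclib, against 68.6 and 79.7 CPM with DMSO. The groups overlapped, and its changes of -0.05, -0.02 and -0.04 with SE of 0.050 to 0.051 did not pass the test. JUNB and HOOK2, a gene on the other strand, share 259 exon bases, and whether the counting used strand is not given, so some of its reads may belong to either gene.

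FOS, the founding Fos protein of AP-1, stood at 17.1, 15.6 and 17.7 CPM with BSJ-03-123, 15.8, 16.7 and 15.2 CPM with YKL-06-102 and 17.6, 15.8 and 18.5 CPM with palbociclib, against 13.6, 15.8 and 16.8 CPM with DMSO. All groups overlapped with DMSO. The changes of 0.13 ± 0.079 for BSJ-03-123, 0.05 ± 0.078 for YKL-06-102 and 0.17 ± 0.078 for palbociclib did not pass the test. For palbociclib the p was 0.0425 and the adjusted p 0.106, and 3 of 19 settings called it higher, among them the fits without palbociclib replicate 2 (0.22, adjusted p = 0.0487) and without DMSO replicate 3 (0.22, adjusted p = 0.0419). The palbociclib change was smaller without DMSO replicate 1 (0.084, adjusted p = 0.482) and without palbociclib replicate 3 (0.12, adjusted p = 0.332).

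FOSB, a Fos family partner in AP-1, was scarcer, with means of 1.92 ± 0.0756 CPM with BSJ-03-123, 2.04 ± 0.289 CPM with YKL-06-102 and 2.06 ± 0.292 CPM with palbociclib, against 1.65 ± 0.259 CPM with DMSO (SD, n = 3 each). Its fold changes of 0.20, 0.29 and 0.30 had SE of 0.188 to 0.196 and did not pass the test, so changes of that size could not be told from 0 at 510 counts over 12 libraries. FOSB lies within the span of ERCC1 on the other strand, with 0 shared exon bases.

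IER2, a nuclear protein induced by growth factors, averaged 52.4 ± 1.44 CPM with BSJ-03-123, 54.6 ± 3.39 CPM with YKL-06-102 and 52.2 ± 1.96 CPM with palbociclib, against 54.7 ± 2.75 CPM with DMSO (SD, n = 3 each). It changed by -0.07, -0.01 and -0.07 on the log2 scale with SE of 0.049 to 0.050, and no change passed. These intervals were among the narrowest of the members, and the widest of them ran from -0.17 to 0.03. IER2 shares 946 exon bases with AC011446.2 on the other strand, which had 28 counts against 14173 for IER2. The strand setting of the counting is not given, so the level of IER2 may be affected.

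ATF3, a stress-induced bZIP factor that pairs with Jun proteins, stood at 6.17, 6.36 and 5.47 CPM with BSJ-03-123, 6.10, 5.97 and 5.48 CPM with YKL-06-102 and 5.48, 4.24 and 6.89 CPM with palbociclib, against 6.54, 6.66 and 7.22 CPM with DMSO. The BSJ-03-123 and YKL-06-102 libraries all lay below the DMSO libraries, while palbociclib replicate 3 lay within them. The changes of -0.18 ± 0.126, -0.22 ± 0.123 and -0.30 ± 0.126 did not pass (adjusted p = 0.317, 0.180 and 0.0650). Without palbociclib replicate 3 the palbociclib change was -0.48 (adjusted p = 0.00500), the only 1 of 19 settings that called it. Without palbociclib replicate 2 the change was -0.15 (adjusted p = 0.404). Groups that did not overlap with DMSO were seen for 3 of 9 tested members with each compound, against 37.2% of all tested genes for BSJ-03-123, 44.7% for YKL-06-102 and 41.7% for palbociclib.

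**Figure D3:**
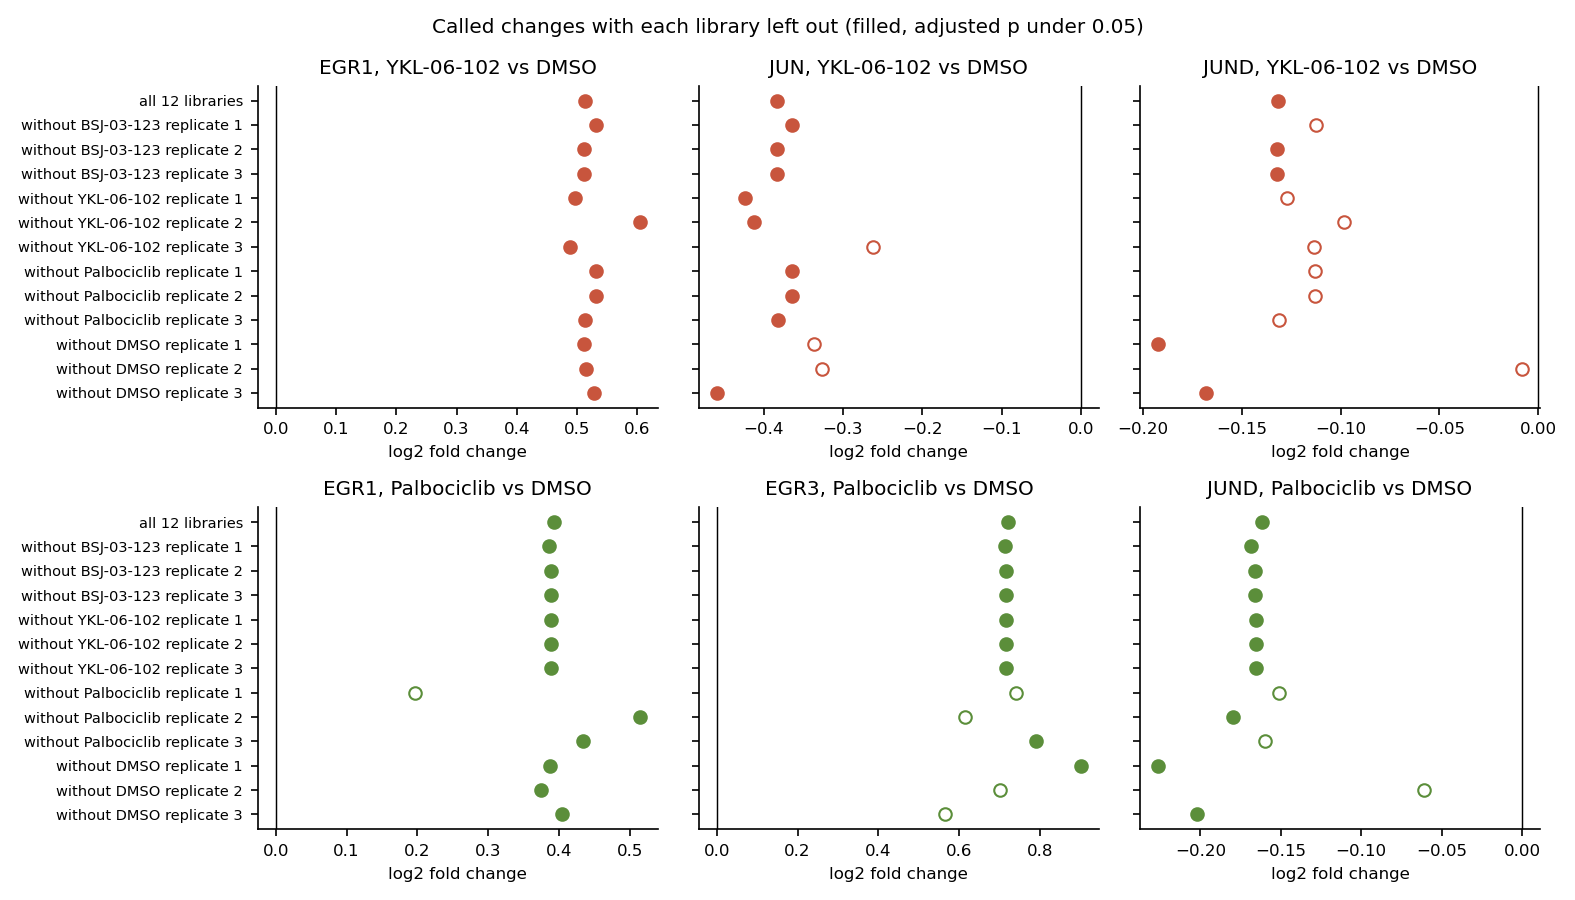
Log2 fold change of the 6 called changes in the fit of all 12 libraries (top row of each panel) and with each library left out in turn; filled points passed the test. EGR1 with YKL-06-102 stays filled between 0.49 and 0.60, JUND moves to -0.0082 and -0.061 without DMSO replicate 2, and EGR1 with palbociclib is 0.20 without palbociclib replicate 1.

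The compounds were compared with each other at the same 200 nM and 6 h, in 3 pairs and 9 tested members per pair, with p-values adjusted over all tested genes of the pair. No member passed in any pair, while 0.155% of all tested genes were called between BSJ-03-123 and palbociclib, 24.7% between YKL-06-102 and palbociclib and 20.1% between BSJ-03-123 and YKL-06-102. At an unadjusted p under 0.05 the counts of members were 1, 1 and 0 of 9, against 8.43%, 34.8% and 30.2% of all tested genes. EGR3 was the member in both cases: its level was lower with BSJ-03-123 than with palbociclib by a log2 change of -0.82 ± 0.282 (95% interval -1.40 to -0.24; adjusted p = 0.314). With YKL-06-102 it was lower than with palbociclib by -0.62 ± 0.260 (95% interval -1.15 to -0.08; adjusted p = 0.0808). The 3 libraries of each conjugate lay below the 3 of palbociclib. Groups that did not overlap were seen for 1 of 9 members between BSJ-03-123 and palbociclib, 2 of 9 between YKL-06-102 and palbociclib and 1 of 9 between BSJ-03-123 and YKL-06-102, against 15.2%, 41.0% and 35.6% of all tested genes.

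For EGR1 the difference between BSJ-03-123 and YKL-06-102 was -0.21 ± 0.118 (95% interval -0.45 to 0.03; adjusted p = 0.231), with every BSJ-03-123 library below every YKL-06-102 library. Between BSJ-03-123 and palbociclib it was -0.09 ± 0.121 (95% interval -0.34 to 0.15; adjusted p = 0.902). Between YKL-06-102 and palbociclib it was 0.12 ± 0.114 (95% interval -0.11 to 0.35; adjusted p = 0.50), and without palbociclib replicate 1 it was 0.33 and passed (adjusted p = 0.0374). That was the only 1 of 19 settings to pass, and without palbociclib replicate 2 the difference was 0.017 (adjusted p = 0.948). For JUN the difference between YKL-06-102 and palbociclib was -0.26 ± 0.138 (95% interval -0.54 to 0.03; adjusted p = 0.188). In each of the 3 pairs the 95% interval lay within a 1.5-fold change in either direction for 8 of 9 members, the exception being EGR3. A p that misses the threshold does not show that the compounds act alike on the members. EGR1 passed against DMSO for YKL-06-102 and palbociclib and not for BSJ-03-123, but none of its differences between compounds passed with all 12 libraries.

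Levels of different genes were compared as CPM per kilobase of exon. In DMSO the order was JUND at 147 ± 17.3, JUNB at 40.0 ± 3.29, IER2 at 17.8 ± 0.896, FOS at 4.75 ± 0.515, ATF3 at 1.68 ± 0.0894, EGR1 at 1.66 ± 0.0376, JUN at 1.11 ± 0.116, FOSB at 0.297 ± 0.0467, EGR3 at 0.135 ± 0.0360 and EGR2 at 0.0302 ± 0.00232 (SD, n = 3). The libraries of ATF3 and EGR1 overlapped in DMSO, and no other neighbours in that order did. With each compound EGR1 stood above ATF3 without overlap: 2.04 ± 0.0552 against 1.49 ± 0.116 with BSJ-03-123, 2.36 ± 0.216 against 1.45 ± 0.0815 with YKL-06-102 and 2.16 ± 0.460 against 1.37 ± 0.328 with palbociclib. With palbociclib ATF3 and JUN overlapped. The rest of the order was the same in the 4 groups. In DMSO, JUND lay above 98.4% of all tested genes on this scale and JUNB above 91.2%, while FOS lay near the middle, above 49.9%, and EGR1 above 30.7%.

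Of the summed level per kilobase of FOS, FOSB, JUN, JUNB and JUND, JUND made up 75.6% ± 1.42 in the BSJ-03-123 libraries, 74.7% ± 0.414 in the YKL-06-102 libraries and 74.2% ± 0.173 in the palbociclib libraries, against 76.1% ± 0.710 with DMSO (SD, n = 3 each). JUNB made up 20.8% ± 1.19, 21.9% ± 0.392 and 21.98% ± 0.280 with the 3 compounds, against 20.7% ± 0.508 with DMSO. FOS made up 2.80% ± 0.324, 2.73% ± 0.162 and 3.01% ± 0.274 with the compounds, against 2.47% ± 0.299 with DMSO. The JUND share in each palbociclib library (74.0% to 74.4%) and each YKL-06-102 library (74.3% to 75.2%) was below that in each DMSO library (75.6% to 76.9%). No test was run on these shares, which do not depend on how libraries are scaled.

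**Figure D4:**
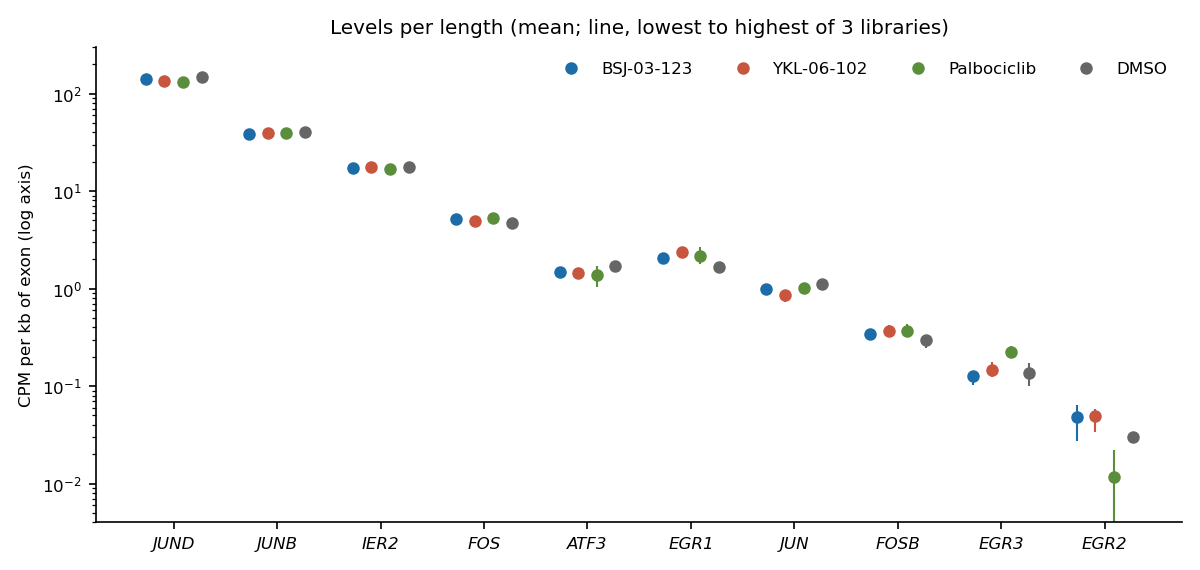
Mean level per kilobase of exon of each member in the 4 groups, on a log axis, with a line from the lowest to the highest of 3 libraries; genes are ordered by their DMSO mean. JUND leads at 132 to 147 CPM per kilobase, EGR1 sits above ATF3 with each compound and level with it in DMSO, and the EGR2 palbociclib line runs off the axis because 1 library had 0 counts.

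Around the members, the list of other immediate-early genes had 23 tested members. This list and those that follow were chosen with earlier results of these data known, so their shares are no independent evidence of a change. With BSJ-03-123 6 rose and 1 fell, with YKL-06-102 8 rose and 1 fell, and with palbociclib 6 rose and 1 fell. The share of the list that rose was 26.1%, 34.8% and 26.1%, against 12.4%, 15.6% and 15.6% of all tested genes, and the share that fell was 4.35% each time, against 15.7%, 21.3% and 17.6%. Called in either direction were 30.4%, 39.1% and 30.4% of the list, against 28.1%, 36.9% and 33.3% of all tested genes, and no test of the list was run. The median log2 fold change of the list was 0.06, 0.14 and 0.01, against 0.01, -0.02 and 0.01 over all tested genes. KLF4, a zinc finger factor of monocyte differentiation, rose with BSJ-03-123 (2.06 ± 0.133 against 1.35 ± 0.191 CPM with DMSO; log2 fold change 0.60 ± 0.203, adjusted p = 0.0253) and with YKL-06-102 (2.55 ± 0.320 CPM; 0.90 ± 0.192, adjusted p = 0.000287), and stood at 1.36 CPM with palbociclib. The BSJ-03-123 rise of KLF4 was lost without BSJ-03-123 replicate 1 (adjusted p = 0.0634) or 3 (0.0810) and without DMSO replicate 1 (0.108) or 3 (0.0543). BTG2, an antiproliferative gene, rose with all 3 compounds, by 0.32, 0.29 and 0.51, and so did PPP1R15A, which restores translation after stress, by 0.23, 0.34 and 0.32. TRIB1, a pseudokinase that targets C/EBP proteins for degradation, rose with YKL-06-102 by 0.57 ± 0.081. IER5, a regulator of the heat shock factor, fell with all 3, by a log2 fold change of -0.30, -0.72 and -0.18. The palbociclib fall of IER5 was -0.11 without DMSO replicate 2 (adjusted p = 0.185), and the call was also lost without palbociclib replicate 1 (0.144) and without DMSO replicate 3 (0.0521). Without DMSO replicate 2, the palbociclib count of the list was 4 higher and 0 lower.

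Of 11 tested AP-1 and bZIP partners, 3 rose and 1 fell with BSJ-03-123, 2 rose and 3 fell with YKL-06-102 and 2 rose and 2 fell with palbociclib. These were 36.4%, 45.5% and 36.4% of the list, where 28.1%, 36.9% and 33.3% of all tested genes were called. BATF2, an interferon-inducible partner of Jun proteins, rose the most, by 1.04 ± 0.181 for BSJ-03-123, 1.44 ± 0.171 for YKL-06-102 and 0.78 ± 0.183 for palbociclib, at 3.45, 4.55 and 2.87 CPM against 1.69 CPM with DMSO. BATF3, known for its part in dendritic cell development, went the other way, by -0.71 ± 0.199, -0.70 ± 0.192 and -0.77 ± 0.197, at 1.85, 1.86 and 1.76 CPM against 3.0 CPM with DMSO. Both held in 19 of 19 settings with each compound. The Fos family members FOSL1, at 26.6, 28.9 and 24.9 CPM against 26.7 CPM with DMSO, did not pass, and FOSL2 fell by 0.10 with YKL-06-102 and by 0.09 with palbociclib on the log2 scale. Those FOSL2 calls held in 7 and 10 of 19 settings only, and both were lost without DMSO replicate 2 (adjusted p = 0.110 and 0.0615) or 3 (0.109 and 0.144). The YKL-06-102 call of FOSL2 was also lost without any 1 of the YKL-06-102 libraries, BSJ-03-123 replicate 1 or palbociclib replicate 1 or 2 (adjusted p of 0.0746 to 0.195), and the palbociclib call without any 1 of the palbociclib libraries (0.0557 to 0.187).

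NAB1, a corepressor that binds EGR proteins, fell with all 3 compounds, to 9.52 ± 0.280 CPM with BSJ-03-123, 12.5 ± 0.556 CPM with YKL-06-102 and 9.79 ± 0.759 CPM with palbociclib, against 14.6 ± 0.793 CPM with DMSO (SD, n = 3 each). The log2 fold changes were -0.61 ± 0.080 (adjusted p = 6.71e-07), -0.22 ± 0.074 (0.0191) and -0.56 ± 0.078 (1.39e-06). They held in 19, 13 and 19 of 19 settings, and the YKL-06-102 call was lost without YKL-06-102 replicate 1 (adjusted p = 0.0504) or 2 (0.129) and without DMSO replicate 1 (0.0911). NAB2, the other corepressor, stood at 11.3, 12 and 11.4 CPM against 12 CPM with DMSO and did not pass, and EGR4 was too low to be tested. NAB1 stood higher with YKL-06-102 than with palbociclib (0.34 ± 0.078, adjusted p = 0.00129) and lower with BSJ-03-123 than with YKL-06-102 (-0.39 ± 0.080, adjusted p = 0.000568).

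Of 24 kinases and factors upstream of immediate-early genes, 2 rose and 4 fell with BSJ-03-123, 1 rose and 8 fell with YKL-06-102 and 2 rose and 8 fell with palbociclib. These were 25.0%, 37.5% and 41.7% of the list, where 28.1%, 36.9% and 33.3% of all tested genes were called. RPS6KA1, a ribosomal S6 kinase downstream of ERK, rose with each, by 0.30, 0.18 and 0.35. MAPK9, which encodes a JNK, changed by -0.18, -0.24 and -0.23, and RPS6KA5, a kinase that acts on chromatin at immediate-early genes, by -0.38, -0.39 and -0.28, each past the test. The palbociclib call of RPS6KA5 was lost without DMSO replicate 1 (adjusted p = 0.0676). RPS6KA3 changed by -0.23 with YKL-06-102 and by -0.14 with palbociclib, past the test, and by -0.07 with BSJ-03-123, which did not pass. SRF itself stood at 119, 113 and 124 CPM against 117 CPM with DMSO and did not pass. Without DMSO replicate 2 the BSJ-03-123 count was 5 higher and 5 lower.

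In the stress response around ATF3, with 9 tested genes, 2 rose and 2 fell with BSJ-03-123, 1 rose and 2 fell with YKL-06-102 and 2 rose and 3 fell with palbociclib, or 44.4%, 33.3% and 55.6% of the list, where 28.1%, 36.9% and 33.3% of all tested genes were called. DDIT4, an inhibitor of mTORC1, rose with BSJ-03-123 (0.54 ± 0.095) and with palbociclib (0.83 ± 0.092), and SESN2, a leucine sensor upstream of mTORC1, rose with each compound, by 0.37, 0.24 and 0.38. The YKL-06-102 rise of SESN2 held in 14 of 19 settings and was lost without DMSO replicate 2 (adjusted p = 0.0718) or 3 (0.0845) and without YKL-06-102 replicate 2 (0.0524) or 3 (0.0599). ATF4, the main factor of that response, fell by 0.11, 0.13 and 0.12 on the log2 scale, and its partner CEBPG by 0.16, 0.21 and 0.15. The YKL-06-102 change of ATF4 was -0.088 without DMSO replicate 2 and still passed (adjusted p = 0.0255). Of 5 genes described with CDK6 as a cofactor, 1 rose and 2 fell with BSJ-03-123, 1 rose and 3 fell with YKL-06-102 and 1 rose and 2 fell with palbociclib, so that 3, 4 and 3 of 5 were called, against 28.1%, 36.9% and 33.3% of all tested genes. AURKA changed by -0.23, -0.11 and -0.30, and CDKN2A, which encodes p16, by -0.26, -0.21 and -0.29. With YKL-06-102, PIM1 changed by -0.16 and VEGFA rose by 0.18 ± 0.045. FLT3 rose by 0.09 with BSJ-03-123 and by 0.21 with palbociclib. The YKL-06-102 call of AURKA held in 7 of 19 settings and the BSJ-03-123 call of FLT3 in 8 of 19. Both were lost without DMSO replicate 2 (adjusted p = 0.168 and 0.115). The YKL-06-102 change of CDKN2A was -0.11 without DMSO replicate 2 and -0.15 without YKL-06-102 replicate 1, and neither passed (adjusted p = 0.0978 and 0.0746). Without DMSO replicate 2 the YKL-06-102 count was 1 higher and 1 lower.

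**Figure D5:**
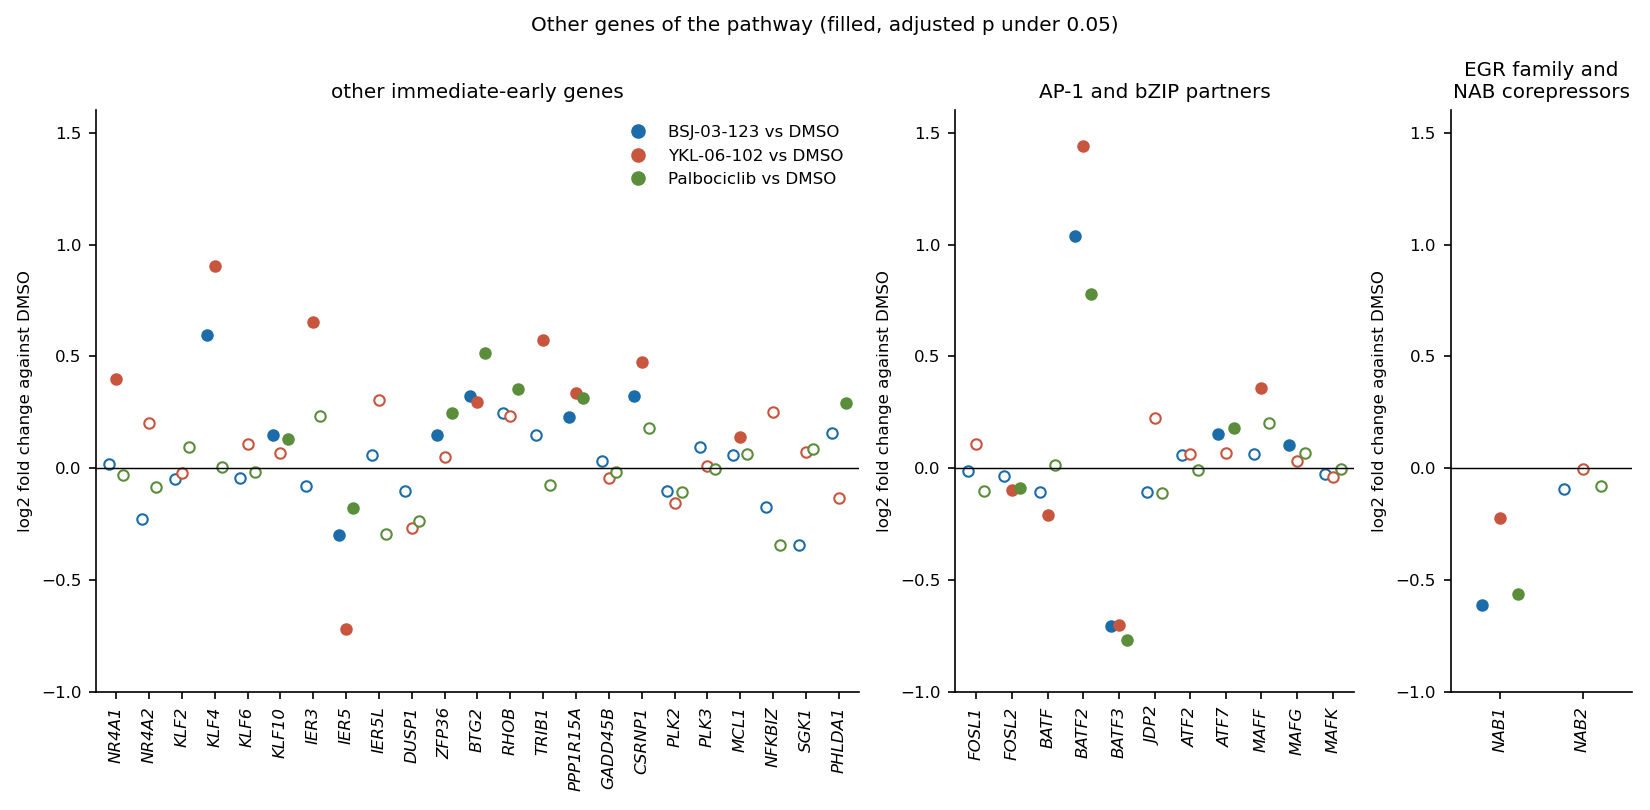
Log2 fold change against DMSO of the tested genes in 3 lists around the members, 1 colour per compound; filled points passed the test. BATF2 is the highest point and BATF3 the lowest among the AP-1 partners, NAB1 is below 0 with each compound, and most other points lie within 0.5 of 0.

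The transcripts whose group means most resembled those of EGR1, out of 10353 candidates, were HLA-DQB1, MMP2 and ZBTB48, with root mean square differences of 0.0039, 0.0087 and 0.012 over the 4 group means of log2 CPM (each centred on its own mean). HLA-DQB1 had log2 fold changes of 0.29, 0.50 and 0.36 with BSJ-03-123, YKL-06-102 and palbociclib. These differences are far below the SE of the EGR1 changes against DMSO (0.124 to 0.130). A close match over 4 means among so many candidates does not show shared regulation, which was not tested. The pattern of EGR3 was nearest to TIPARP, LENG8-AS1 and CCNG2, at 0.13, 0.16 and 0.17. LENG8-AS1 is an antisense gene, and without a statement on strand its reads cannot be told from those of the gene opposite. TIPARP had log2 fold changes of 0.13, 0.17 and 0.55. Only EGR1 and EGR3 had a called change of at least 0.5 on the log2 scale, the size set for this comparison.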

How the data were processed

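The library kit was a stranded one for mRNA, per the labels. The table the authors deposited holds raw counts for each Ensembl gene in each library, not normalized. Trimmomatic 0.36, STAR 2.5.2b, HTSeq and the build hg38 are named per the submitters' processing notes, and the strand setting of the counting is not given in the sources used here. Gene IDs were matched to GENCODE 29, which named 57447 of 58051.

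Of 28826 genes with a count, 14214 passed filterByExpr (minimum count 10, minimum total count 15) and held 99.9% of counts. All 12 libraries were fitted together in edgeR 4.0.16 (R 4.3.3) with TMM factors, group as the only term and 8 residual degrees of freedom. The 6 contrasts were tested 2-sided by quasi-likelihood, and SE and 95% intervals are Wald values with a prior count of 0.125. The common biological coefficient of variation was 3.08%. The code was tested on simulated data first. Alternatives were library totals, DESeq2 1.42.0, limma-voom (limma 3.58.1), no filter, at least 1 CPM in 3 libraries, only the 2 groups compared, a replicate block and each library left out in turn. Replicate numbers were checked for pairing and showed none over the series as a whole. Pairing of the DMSO libraries with those of a conjugate, named at the end, could not be settled.

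Named were all 10 members and, of each list, some of its called genes and single members whose role is described. The called genes named were not always those with the smallest p. For members called at an absolute log2 fold change of at least 0.5, the 3 nearest profiles were named among genes averaging at least 2 on the log2 CPM scale (prior count 2). The members and lists were chosen with earlier results of these data known. Intervals cover the spread between libraries, and reads carried no molecular identifiers.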

Additional observations from a re-analysis of the deposited data

How the results depend on the processing

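In 19 alternatives (12 that leave out a library and 7 others), EGR1 with YKL-06-102 was called each time, EGR1 with palbociclib in 18, JUND with palbociclib in 14, JUN with YKL-06-102 in 13 and JUND with YKL-06-102 in 6. EGR3 with palbociclib was called in 11 of 17, since DESeq2 gave it no adjusted p and the minimum of 1 CPM removed it. Members called against DMSO numbered 1 in place of 0 with BSJ-03-123 by library totals, 1 in place of 3 with YKL-06-102 by DESeq2 and in the fit of only the 2 groups compared, and 1 in place of 3 with palbociclib by DESeq2. Of all tested genes, library totals called 4617 in place of 3997 with BSJ-03-123. With YKL-06-102, DESeq2 called 4478 genes and the fit of only the 2 groups 4771, in place of 5249. With palbociclib, DESeq2 called 3998 genes in place of 4731. With a library left out, members called numbered 0 to 1 with BSJ-03-123, 1 to 3 with YKL-06-102, 0 to 3 with palbociclib and 0 to 1 between YKL-06-102 and palbociclib. All genes called in these comparisons then numbered 3343 to 4088, 4442 to 5583, 3876 to 4657 and 2707 to 4114. The lowest counts of members came without YKL-06-102 replicate 3 or DMSO replicate 2 (1 with YKL-06-102), and without palbociclib replicate 1 (0) or DMSO replicate 2 (1) with palbociclib, and the cause was not tested. Between BSJ-03-123 and palbociclib, 22 genes were called, 43 by DESeq2, 64 with no filter, 75 in the fit of only these 2 groups and 3 to 116 with a library left out (3 without palbociclib replicate 1 and 116 without DMSO replicate 2).

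A sign turned in 47 values of 18 log2 fold changes, none past the test as reported or in the alternative. With YKL-06-102 against DMSO, JUNB turned to 0.0130 with library totals and 0.00386 with no filter, and IER2 to 0.0307 with library totals, 0.00483 with DESeq2, 0.0216 with no filter and 0.0131 with only the 2 groups. JUNB with palbociclib turned to 0.00852 with library totals. IER2 between BSJ-03-123 and palbociclib turned to -0.000134 with library totals and -0.00321 with no filter.
With a library left out, ranges against DMSO were -0.100 to 0.0201 for JUNB, -0.136 to 0.0304 for JUND and -0.258 to 0.0774 for EGR3 with BSJ-03-123. They were -0.0316 to 0.105 for FOS, -0.0667 to 0.0708 for JUNB, -0.0512 to 0.288 for EGR3 and -0.0375 to 0.0590 for IER2 with YKL-06-102, and -0.0853 to 0.0335 for JUNB with palbociclib. Between BSJ-03-123 and palbociclib they were -0.100 to 0.00654 for FOS, -0.173 to 0.0175 for FOSB, -0.0430 to 0.0339 for JUNB, -0.219 to 0.0994 for EGR1, -0.0174 to 0.0344 for IER2 and -0.0345 to 0.294 for ATF3. Between YKL-06-102 and palbociclib they were -0.100 to 0.127 for FOSB and -0.0478 to 0.262 for ATF3, and between BSJ-03-123 and YKL-06-102 -0.00346 to 0.101 for JUND and -0.0325 to 0.0962 for ATF3.

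The labels' replicate numbers showed no pairing over the series as a whole. Of 18 pairs with the same number, 2 had deviations correlated above 0.1 (range -0.16 to 0.23). With different numbers these were 5 of 36 pairs (range -0.21 to 0.18). DMSO and BSJ-03-123 differed from this, at 0.087, 0.227 and 0.203 for replicates 1, 2 and 3. Their libraries of different number ran from -0.208 to 0.047, so pairing of these groups could not be settled. A fit with the replicate number as a block called 0, 3 and 3 members against DMSO with BSJ-03-123, YKL-06-102 and palbociclib. Of all tested genes it called 3991, 5244 and 4687 in these comparisons, and 26 between BSJ-03-123 and palbociclib. EGR3 and EGR2 are limited by depth, with 204 and 34 counts in all.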
